A study of Ovis aries with 4 samples.

Results

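The genes described here are the 106 of 26478 sheep genes in the nuclei gene list whose symbol starts with 1 of 10 solute carrier prefixes, SLC4A, SLC6A, SLC7A, SLC8A, SLC9A, SLC12A, SLC16A, SLC24A, SLC38A or SLC39A. All 106 were counted at least once in the nuclei libraries. Solute carriers are membrane proteins that move ions, amino acids, metals and small acids across the cell surface or the membranes of organelles. Of the 106, 4 are not transporters: SLC9A3R1 and SLC9A3R2 encode scaffold proteins that bind sodium-proton exchangers, and SLC4A1AP and SLC7A6OS are named only for a partner or a neighbouring gene. They were kept in the list, as the prefixes take them in.

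The study compared whole cells and isolated nuclei from the striatum, a deep forebrain region, as input for droplet RNA sequencing. There were 4 libraries and no treatment or genotype contrast: whole cells replicate 1 and nuclei replicate 1 came from sheep 1 and 2, and whole cells replicate 2 and nuclei replicate 2 from sheep 3 and 4. All animals were 5 years old, and each library was a pool of 2 of them. Nuclei came from frozen tissue broken up in a detergent buffer and whole cells from papain digestion, with n = 2 libraries of each kind.

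In the brain, members of these families set the chloride, bicarbonate, proton and calcium balance of neurons and glia, clear GABA, glycine and taurine from the space around synapses, and feed cells with amino acids, lactate and zinc. Glia and neurons are known to use different members of the same family, such as a chloride importer in glia and young neurons and a chloride exporter in mature neurons. The measurements below are of RNA, not of protein or transport.

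The nuclei libraries held 70473292 and 51102420 UMIs (unique molecular identifiers, each marking a captured RNA molecule), and the whole cells libraries 1115058 and 19241918. Mitochondrial transcripts took 88.7% and 86.9% of the whole cells UMIs and 0.779% and 0.776% of the nuclei UMIs. The 106 genes gave 477351 and 378224 UMIs in nuclei, which was 0.683% and 0.746% of non-mitochondrial UMIs, against 189 and 3350 UMIs in whole cells, 0.150% and 0.133%. Whole cells replicate 1 detected 49 of the genes and replicate 2 detected 82. The libraries of a kind shared 29 (nuclei) or 14 (whole cells) barcode sequences.

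Nuclei were clustered without the 106 genes, so their levels did not shape the clusters, and 6 classes were named from other markers. After removal of likely doublets, the classes held 3721 and 3786 oligodendrocyte-like nuclei, 575 and 686 oligodendrocyte precursor-like, 479 and 447 astrocyte-like, 749 and 753 microglia-like, 1421 and 1376 medium spiny neuron-like and 160 and 211 interneuron-like nuclei in replicates 1 and 2. Median UMIs per nucleus were 2182 and 1580 in oligodendrocyte-like, 3669 and 2769 in astrocyte-like, 1657 and 1388 in microglia-like, 28269 and 16369 in medium spiny neuron-like and 14369 and 15750 in interneuron-like nuclei. A further 899 and 458 nuclei were in 4 unnamed clusters. Levels are in CPM: the UMIs of a gene summed over the nuclei of a class in a library, scaled to a total of 1000000 UMIs for that sum. Pairs of values give replicate 1 first. A sum of 0 allows up to 3 counts, which is 2.61 CPM in the shallowest sum (microglia-like nuclei of replicate 2) and 0.0684 CPM in the deepest (medium spiny neuron-like nuclei of replicate 1). A gene was called higher or lower in a class when edgeR's quasi-likelihood test of that class against the mean log2 level of the other 5 gave a Benjamini-Hochberg adjusted p under 0.05 and a difference of at least 2-fold. Levels are not per length, so they compare classes for a gene and not genes with each other.

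Of the 106 genes, 84 had enough counts to be tested, and 79 of these differed by at least 2-fold between their highest and lowest class with an edgeR adjusted p under 0.05, where 77.1% of all 12992 genes tested did, and 74.6% of those that took no part in the clustering. A gene can enter the test through the class where it is high, so this count describes the genes tested and not the other 22, which had between 0 and 245 counts over the classes. The highest level lay in microglia-like nuclei for 27 of the 84 (39.1% of all genes tested), astrocyte-like for 17 (18%), interneuron-like for 13 (12.2%), medium spiny neuron-like for 12 (10%), oligodendrocyte-like for 11 (12.9%) and precursor-like for 4 (7.79%). For 59 of the 84, both libraries of the top class stood above every library of every other class, as they did for 62.4% of all genes tested. The 5 tested genes that did not meet both conditions, the adjusted p and the 2-fold range, were SLC4A1AP, SLC7A6OS, SLC39A9, SLC39A7 and SLC6A4.

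**Figure D1:**
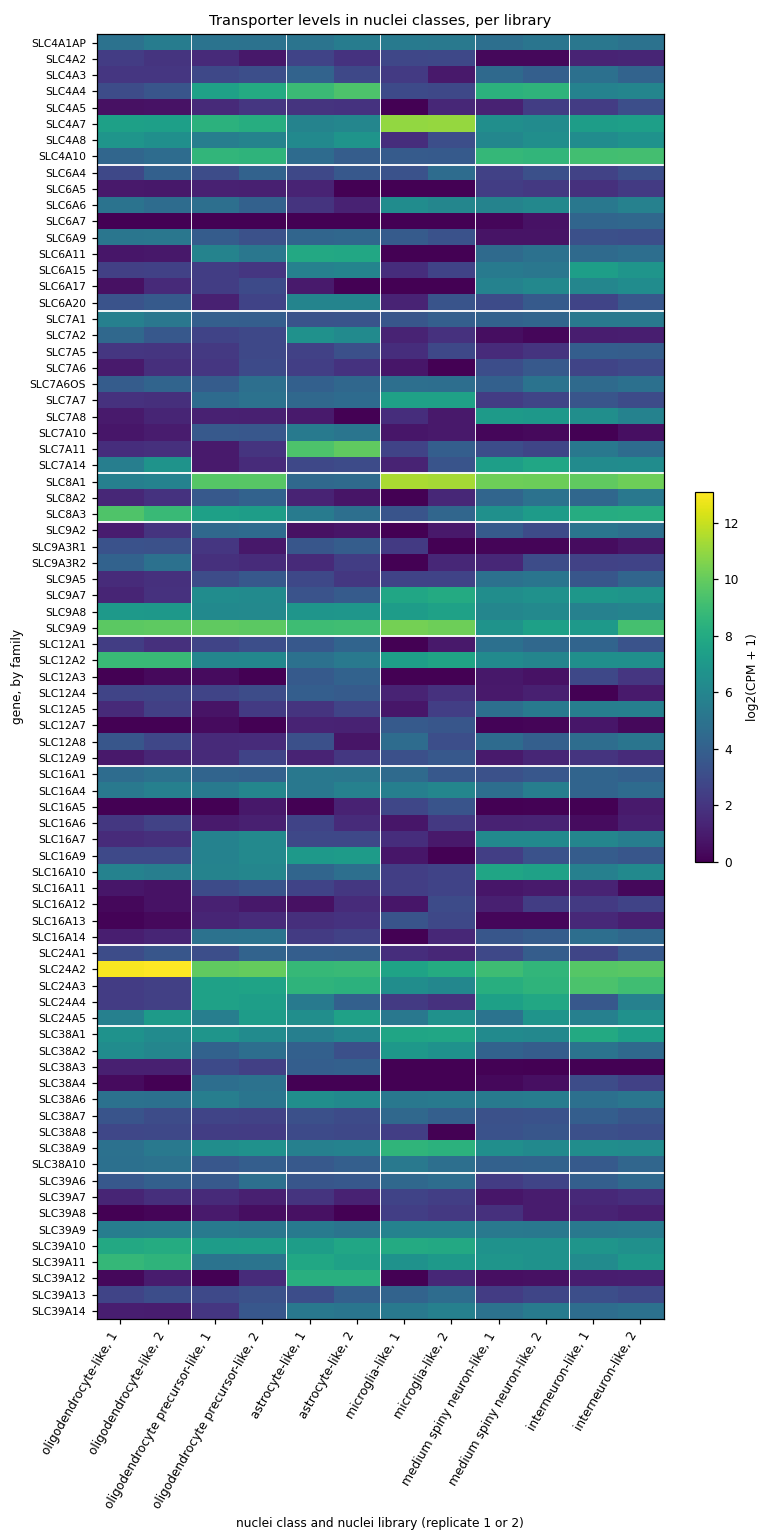
Level of 79 of the 84 tested genes as log2(CPM + 1), with a row per gene in family order and a column per class and nuclei library. Neighbouring columns of a class look alike, and single bright cells mark genes high in a single class, such as SLC39A12 and SLC7A11 in astrocyte-like nuclei.

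The SLC4A family carries bicarbonate and so sets the pH in and around cells. SLC4A4, the electrogenic sodium-bicarbonate cotransporter known from astrocytes, stood at 489.9 and 695 CPM in astrocyte-like, 339.8 and 365 in medium spiny neuron-like and 182 and 253 in precursor-like nuclei. It was at 6.08 to 9.78 in oligodendrocyte-like and microglia-like nuclei, and the groups did not overlap. The log2 difference from the other classes was 3.46 ± 0.10 (SE) in astrocyte-like nuclei (edgeR adjusted p = 1.70e-11) and -3.62 ± 0.17 in oligodendrocyte-like nuclei (edgeR adjusted p = 7.79e-10).

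SLC4A7, an electroneutral sodium-bicarbonate cotransporter, had its highest level in microglia-like nuclei, at 1993 and 2061 CPM. Precursor-like nuclei came next at 338 and 289, and astrocyte-like nuclei were lowest at 56.3 and 63.2. The microglia-like mean was 6.47-fold the next class, and the log2 difference was 3.46 ± 0.09 (edgeR adjusted p = 3.15e-12). SLC4A10, a sodium-dependent bicarbonate carrier of neurons, was highest in other classes: 557 and 587 CPM in interneuron-like, 415 and 391 in medium spiny neuron-like and 392 and 371 in precursor-like nuclei. It did not exceed 23.8 CPM in the 3 other glial classes, and all 6 classes were called for it, the 2 neuronal classes and the precursors as higher. SLC4A3, the anion exchanger AE3, was higher in both neuronal classes (20.9 and 14.8 CPM and 27.1 and 17.2). Astrocyte-like nuclei, at 16.7 and 6.18 CPM of SLC4A3, overlapped the medium spiny neuron-like values. SLC4A2, the more widespread AE2, was lower in medium spiny neuron-like nuclei, at 0.228 and 0.215 CPM against 0.819 to 6.08 elsewhere. SLC4A8, which exchanges chloride for sodium and bicarbonate, was called lower in microglia-like nuclei, at 2.24 and 7.82 CPM.

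The SLC6A family uses the sodium gradient to take up neurotransmitters and amino acids. The GABA transporter of astrocyte processes, SLC6A11 (GAT-3), stood at 237 and 227 CPM in astrocyte-like nuclei and had no count in either microglia-like library. It was at 57.9 and 35.6 CPM in precursor-like, 22.2 and 29.02 in medium spiny neuron-like and 22.01 and 25.8 in interneuron-like nuclei, and under 1 CPM in oligodendrocyte-like nuclei. The astrocyte-like mean was 4.95-fold the next class (edgeR adjusted p = 3.55e-10).

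SLC6A9 (GlyT1), which clears glycine, was highest in oligodendrocyte-like nuclei at 33.9 and 36.1 CPM, followed by astrocyte-like at 18.1 and 19.9. Medium spiny neuron-like nuclei had 0.616 and 0.610 CPM, a log2 difference of -4.16 ± 0.22 (edgeR adjusted p = 2.72e-09), and did not overlap any other class. SLC6A6, the taurine transporter, was called lower in astrocyte-like nuclei (2.86 and 1.37 CPM against 15.97 to 82.99 elsewhere) and higher in microglia-like (82.99 and 64.3), medium spiny neuron-like (57.6 and 67.4) and interneuron-like nuclei (36.4 and 53.1), the first 2 of which overlapped.

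Among the amino acid carriers of the family, SLC6A7, a proline transporter of neurons, was counted in interneuron-like nuclei at 18.4 and 19.9 CPM and at 0.160 and 0.574 in medium spiny neuron-like nuclei. All 8 sums of the 4 glial classes were 0, and so were all 749 and 753 single microglia-like nuclei. The interneuron-like mean was 52.2-fold the medium spiny neuron-like mean (edgeR adjusted p for interneuron-like nuclei = 1.35e-06), and 19.4% and 21.3% of interneuron-like nuclei had a UMI. SLC6A17, a neutral amino acid transporter of synaptic vesicles, was high in both neuronal classes, at 54.1 and 68.8 CPM in medium spiny neuron-like and 62.8 and 83.01 in interneuron-like nuclei, and at most 6.55 in glia. SLC6A15, a related carrier of branched-chain amino acids and proline, reached 162 and 115 CPM in interneuron-like nuclei, 53.95 and 59.03 in astrocyte-like and 40.9 and 35.6 in medium spiny neuron-like nuclei, all called higher. SLC6A20, a proline and imino acid carrier, was higher in astrocyte-like nuclei only (58.3 and 59.03 CPM, at most 12.1 elsewhere).

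The dopamine and serotonin transporters are known to be made by neurons whose cell bodies lie outside the striatum. SLC6A3, the dopamine transporter, had 4 counts in the 6 classes together, all of them in medium spiny neuron-like nuclei. SLC6A4, the serotonin transporter, had 4.75 to 23.5 CPM across all classes and did not meet both conditions for a difference among them, the adjusted p and the 2-fold range.

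The SLC7A family exchanges amino acids between the cell and its surroundings. SLC7A11, the cystine-glutamate exchanger, stood at 689 and 941 CPM in astrocyte-like nuclei, where 77.04% and 75.4% of nuclei had a UMI, against 0.511% and 0.423% of oligodendrocyte-like nuclei. The next class, interneuron-like, had 37.2 and 24.01 CPM, and the other 4 classes had 0.960 to 13.9. The log2 difference in astrocyte-like nuclei was 6.90 ± 0.18 (edgeR adjusted p = 5.99e-12), and their mean was 26.6-fold the next. It was called lower in precursor-like nuclei (0.960 and 2.87 CPM).

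SLC7A8 (LAT2), a carrier of large neutral amino acids, was high in both neuronal classes. It stood at 142 and 124 CPM in medium spiny neuron-like and 87.3 and 55.3 in interneuron-like nuclei, and at 0 to 2.24 in the 4 glial classes. The log2 difference was 6.12 ± 0.16 in medium spiny neuron-like nuclei (edgeR adjusted p = 3.71e-12). The glial means were 0.359% to 1.17% of the medium spiny neuron-like mean, whereas 13 markers of that class had a median of 6.37% to 23.5% of their own level in the other classes. SLC7A14, a lysosomal member of the family, was also highest there, at 162 and 213 CPM, with 80.1 and 81.4 in interneuron-like and 48.2 and 106 in oligodendrocyte-like nuclei. Precursor-like nuclei, at 0.960 and 2.05 CPM, were called lower (log2 -4.40 ± 0.45, edgeR adjusted p = 3.67e-06).

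The family also holds carriers of cationic amino acids. SLC7A2 was highest in astrocyte-like nuclei (96.4 and 74.8 CPM), also called higher in oligodendrocyte-like nuclei (20.3 and 11.02), and lowest in medium spiny neuron-like nuclei (0.411 and 0.179), while SLC7A1 was called higher in oligodendrocyte-like (50.4 and 35.7) and interneuron-like nuclei (38.97 and 38.4). SLC7A7 (y+LAT1), known from macrophages, stood at 177 and 176 CPM in microglia-like nuclei, 6.68-fold the next class (log2 3.86 ± 0.13, edgeR adjusted p = 3.62e-11). SLC7A10 (Asc-1), a carrier of small neutral amino acids such as D-serine, was higher in astrocyte-like (39.2 and 32.9 CPM) and precursor-like nuclei (11.5 and 10.6). It was under 1 CPM in every other sum, and called lower in both neuronal classes. SLC7A5 (LAT1) was called in interneuron-like nuclei alone, at 14.1 and 13.49 CPM.

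The SLC8A genes encode the sodium-calcium exchangers NCX1 to NCX3, which push calcium out of cells. SLC8A1 stood at 2751 and 2604 CPM in microglia-like nuclei, 1173 and 1155 in medium spiny neuron-like, 953 and 1179 in interneuron-like and 801 and 828 in precursor-like nuclei. It was at 49.95 and 55.1 in oligodendrocyte-like and 20.5 and 21.97 in astrocyte-like nuclei, a log2 difference of -5.16 ± 0.18 for the latter (edgeR adjusted p = 8.70e-11). SLC8A3 was highest in oligodendrocyte-like nuclei, at 727 and 466 CPM, and lowest in microglia-like nuclei, at 9.72 and 19.1. The 2 genes therefore had opposite orders in these glial classes: microglia-like nuclei were called higher for SLC8A1 and lower for SLC8A3, and oligodendrocyte-like nuclei the other way round. SLC8A2 was called higher in both neuronal classes (18.1 and 29.3 CPM and 19.8 and 36.8) and in precursor-like nuclei (11.5 and 16.4).

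The SLC24A exchangers also move calcium against sodium, and use the potassium gradient as well. SLC24A2 (NCKX2) stood at 8119.8 and 8770.3 CPM in oligodendrocyte-like nuclei, where 99.8% and 99.6% of nuclei had a UMI, against 5.07% and 5.18% of microglia-like nuclei. Precursor-like nuclei had 945 and 1027 CPM, interneuron-like 814 and 873 and the rest 191 to 517. Its oligodendrocyte-like mean was 8.57-fold the next class and the log2 difference 4.11 ± 0.12 (edgeR adjusted p = 1.04e-11). Oligodendrocyte markers had a median of 0.946% to 5.40% of their own level in the other classes, against 2.72% to 11.7% for SLC24A2, and the part that free RNA had in its level outside oligodendrocyte-like nuclei was not tested.

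SLC24A3 (NCKX3) was instead lowest in oligodendrocyte-like nuclei. Oligodendrocyte-like nuclei had 4.08 and 4.68 CPM, a log2 difference of -5.74 ± 0.18 (edgeR adjusted p = 2.32e-11), against 672 and 548 in interneuron-like, 365 and 342 in astrocyte-like and 293 and 361 in medium spiny neuron-like nuclei. SLC24A4 (NCKX4) was called higher in medium spiny neuron-like (175 and 228 CPM) and precursor-like nuclei (182 and 164), where the 2 classes overlapped.

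**Figure D2:**
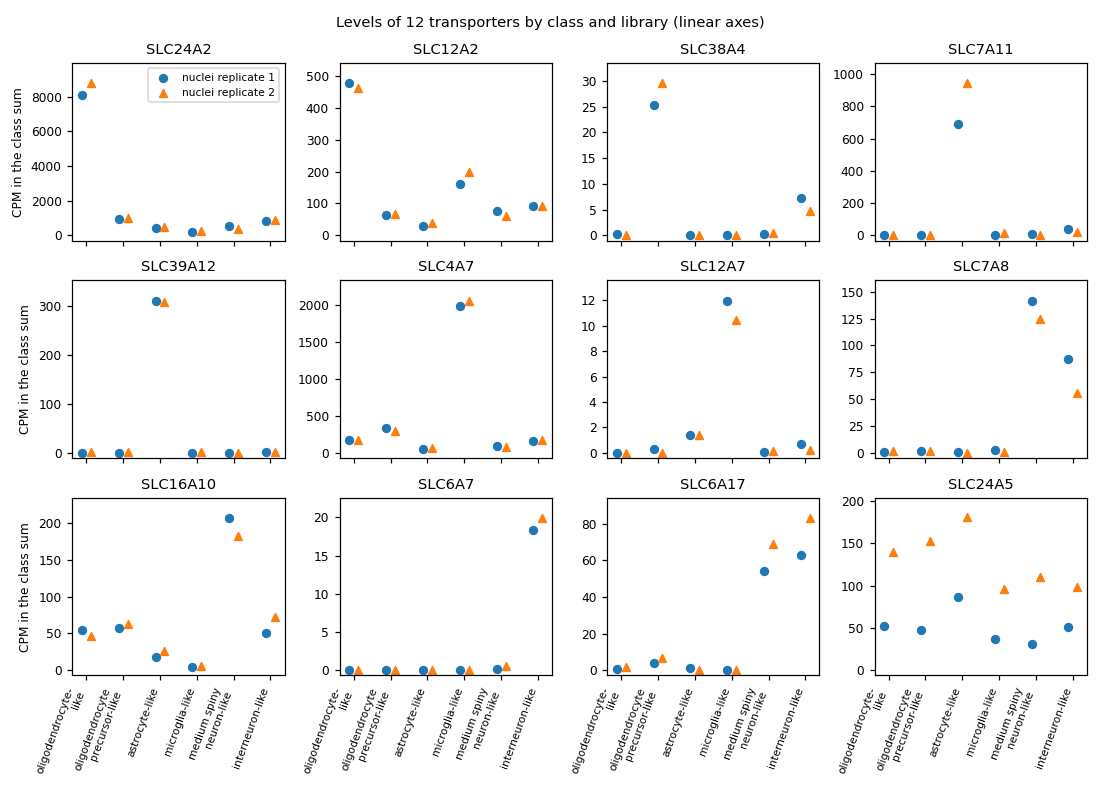
CPM of 12 of the genes in the class sums of nuclei replicate 1 (circles) and replicate 2 (triangles), on linear axes that differ between panels. In 11 panels the replicates of a class lie close together compared with the spread between classes, while SLC24A5 is higher in replicate 2 in every class.

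SLC9A sodium-proton exchangers set the pH of the cytosol and of endosomes. SLC9A7, an exchanger of the Golgi, stood at 215 and 258 CPM in microglia-like nuclei and 1.57 and 2.62 in oligodendrocyte-like nuclei. All 6 classes were called for it, oligodendrocyte-like and astrocyte-like nuclei as lower. SLC9A9, an endosomal exchanger, was called lower in medium spiny neuron-like nuclei, at 105 and 176 CPM against 527 to 1319.6 in glia. Interneuron-like nuclei, at 134 and 607 CPM, overlapped the medium spiny neuron-like values. The scaffold genes SLC9A3R1 and SLC9A3R2 were both called higher in oligodendrocyte-like nuclei, at 8.99 and 8.54 and 16.2 and 28.4 CPM. SLC9A3R1 was also called higher in astrocyte-like nuclei, where it was highest, at 10.5 and 13.7 CPM.

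SLC12A cotransporters carry chloride with sodium or potassium. SLC12A2 (NKCC1), which brings chloride in, was highest in oligodendrocyte-like nuclei at 477 and 461 CPM, 2.61-fold the microglia-like mean (log2 2.74 ± 0.11, edgeR adjusted p = 1.79e-10). Both neuronal classes had 60.5 to 92.2 CPM and were not called. SLC12A5 (KCC2), the chloride exporter of mature neurons, stood at 48.4 and 49.2 CPM in interneuron-like and 26.3 and 40.8 in medium spiny neuron-like nuclei and at 0.640 to 5.49 in glia, with no overlap (log2 3.46 ± 0.22 and 3.11 ± 0.20).

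Other potassium-chloride cotransporters followed different classes. SLC12A7 (KCC4) was counted mainly in microglia-like nuclei, at 11.96 and 10.4 CPM, 7.98-fold the astrocyte-like mean (edgeR adjusted p = 2.95e-06). It had no count in the oligodendrocyte-like nuclei of either library, which allows up to 0.314 and 0.413 CPM at 3 counts. SLC12A4 (KCC1) was higher in astrocyte-like (14.3 and 12.4 CPM), precursor-like (5.44 and 7.37) and oligodendrocyte-like nuclei (5.54 and 5.65) and lower in both neuronal classes. SLC12A3, the thiazide-sensitive cotransporter best known from kidney, had 11.9 and 16.5 CPM in astrocyte-like and 6.13 and 3.20 in interneuron-like nuclei and under 1 CPM in all other sums.

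The SLC16A family moves lactate, aromatic amino acids and other small molecules. Of the lactate carriers, SLC16A1 (MCT1) was called higher in astrocyte-like nuclei only, at 37.2 and 35.7 CPM, with a range of 8.53 to 28.4 elsewhere. SLC16A7 (MCT2) stood at 73.7 and 72.6 CPM in medium spiny neuron-like, 62.8 and 45.5 in interneuron-like and 55.4 and 69.6 in precursor-like nuclei, and at 0.869 to 6.21 in the other glia, with no overlap.

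SLC16A10 (TAT1), which carries aromatic amino acids, was highest in medium spiny neuron-like nuclei at 207 and 182 CPM, 3.15-fold the next class (log2 3.13 ± 0.14, edgeR adjusted p = 3.31e-10). It was lowest in microglia-like nuclei, at 4.49 and 5.21 CPM. SLC16A9 was higher in astrocyte-like (137 and 145 CPM) and precursor-like nuclei (54.1 and 70.01). Of the less studied members, SLC16A5 (5.98 and 9.56 CPM) and SLC16A13 (9.72 and 6.08) were called higher in microglia-like nuclei. SLC16A11 was called higher in precursor-like nuclei (7.04 and 9.42 CPM).

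The SLC38A family carries glutamine and other neutral amino acids. SLC38A3 (SNAT3), which releases glutamine from astrocytes, stood at 13.8 and 15.1 CPM in astrocyte-like and 6.72 and 4.50 in precursor-like nuclei and at most 1.25 elsewhere. SLC38A1 (SNAT1), the glutamine importer of neurons, was called higher in interneuron-like nuclei, at 247 and 166 CPM, but microglia-like nuclei had 209 and 213, and the classes overlapped. SLC38A2 (SNAT2) was called higher in microglia-like (126 and 101 CPM) and oligodendrocyte-like nuclei (81.9 and 63.1). SLC38A4 was highest in precursor-like nuclei, at 25.3 and 29.5 CPM, 4.56-fold the interneuron-like mean, and had no count in the astrocyte-like and microglia-like sums of either library. SLC38A9, a lysosomal sensor of arginine for the growth regulator mTORC1, stood at 383 and 339 CPM in microglia-like nuclei, 3.97-fold the next class (log2 2.03 ± 0.11, edgeR adjusted p = 3.80e-09).

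SLC39A proteins bring zinc and other metals into the cytosol. SLC39A12 (ZIP12) had the largest ratio of its highest to its next class among the 84 tested genes. Astrocyte-like nuclei had 309.9 and 308 CPM, and 61.4% and 48.99% of them had a UMI against 0% and 0.266% of microglia-like nuclei, while no other sum exceeded 2.05 CPM. The astrocyte-like mean was 277-fold the next class (edgeR adjusted p = 6.61e-12). SLC39A11 was highest in oligodendrocyte-like nuclei at 424 and 363 CPM and lowest in precursor-like nuclei at 31.1 and 31.9, both called. SLC39A14 (ZIP14), which also carries iron and manganese, was 1.15 and 1.10 CPM in oligodendrocyte-like and 3.20 and 10.6 in precursor-like nuclei and 24.9 to 50.4 in the other 4 classes, which were all called higher. SLC39A8 (ZIP8) was called higher in microglia-like (4.49 and 3.48 CPM) and medium spiny neuron-like nuclei (2.51 and 0.969). The microglia-like values lay near the 2.24 and 2.61 CPM that 3 counts make there. Only 0.534% and 0.398% of microglia-like nuclei had a UMI of SLC39A8. SLC39A10, at 95.8 to 267 CPM, was called in no class.

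Counted by class, higher calls were most numerous in the neuronal classes. In interneuron-like nuclei 35 of the 84 tested genes were called higher and 5 lower, where 17.8% and 8.28% of all genes tested were. Medium spiny neuron-like nuclei had 32 higher and 14 lower (19.8% and 13.9% of all genes), and astrocyte-like nuclei 22 and 19 (17% and 8.63%). The median log2 difference of the tested list members was 0.54 in interneuron-like nuclei and 0.29 in medium spiny neuron-like nuclei, against 0.02 and 0.01 over all genes tested.

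Microglia-like nuclei had 15 called higher and 33 lower (17% and 23.8% of all genes), and oligodendrocyte-like nuclei 16 and 29 (14.1% and 17.8%). Their medians were -0.85 and -0.42, against -0.10 and 0.02 over all genes. Precursor-like nuclei had 19 and 9 (14.3% and 7.76%). Microglia-like nuclei also had the most lower calls over all genes tested. Without composition factors, log2 differences moved by 0.46 in microglia-like and by -0.38 in medium spiny neuron-like nuclei over all genes, and the split became 21 higher and 27 lower in the former (27% and 18% of all genes) and 28 and 20 in the latter (15.1% and 21.4%). The median UMI count per nucleus was 16369 to 28269 in medium spiny neuron-like nuclei and 1388 to 4643 in the glial classes, and its part in these counts was not tested.

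**Figure D3:**
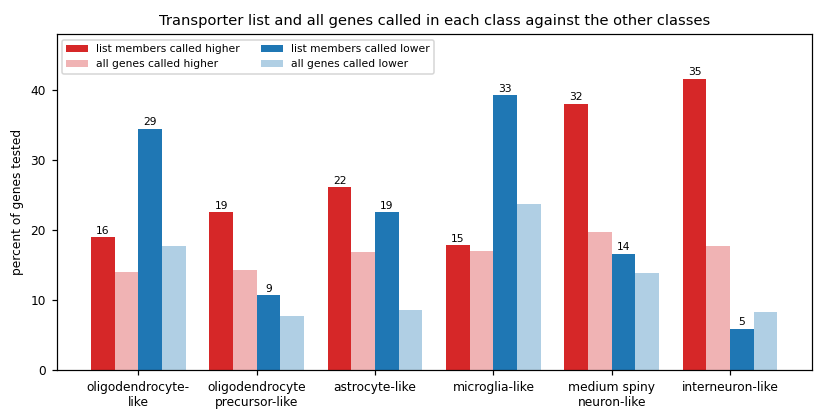
Percent of the 84 tested list members (dark bars, with their number above) and of all 12992 genes tested (pale bars) called higher (red) or lower (blue) in each class. The list stands furthest above the background for higher calls in interneuron-like and medium spiny neuron-like nuclei and for lower calls in oligodendrocyte-like and microglia-like nuclei.

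Genes that work with these transporters were counted from a separate list of 55, of which 43 could be tested. They could take part in the clustering, and SLC1A2 and SLC1A3 were also astrocyte markers, so their counts are a description. Of the 43, 18 were called higher and 9 lower in medium spiny neuron-like nuclei (19.8% and 13.9% of all genes), 15 and 3 in interneuron-like (17.8% and 8.28%) and 15 and 10 in astrocyte-like nuclei (17% and 8.63%). Precursor-like nuclei had 10 and 7 (14.3% and 7.76%), oligodendrocyte-like 5 and 15 (14.1% and 17.8%) and microglia-like 4 and 20 (17% and 23.8%). WNK1 and STK39, kinases that act on the SLC12A cotransporters, were both called higher in oligodendrocyte-like nuclei (928 and 1000.5 and 575 and 474 CPM), while WNK3 and OXSR1 of the same list were not called there. SLC3A2, the heavy chain that several SLC7A proteins need to reach the surface, was called in no class.

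Within a class, clusters were compared as a description, counting genes with at least 20 counts that were at least 2-fold apart in the same direction in both libraries. The 2 oligodendrocyte-like clusters, with OPALIN (cluster 2) or MMRN1 (cluster 3) among their leading genes, differed in 8 of 70 genes, where 4.68% of all genes did. In cluster 3, 7 of the 8 were higher: SLC4A7 stood at 294 and 322 CPM against 129 and 112, and SLC16A10 at 106 and 94.9 against 37.6 and 29.6. SLC4A10 stood at 34.4 and 51.3 CPM against 14.3 and 13.9, while SLC8A1 was lower in cluster 3, at 26.5 and 19.7 against 57.9 and 67.9.

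The 2 large medium spiny neuron-like clusters, 4 with TAC1 and 7 with DRD2 and PENK among their markers, differed in 1 of 83 genes, SLC39A12, at 20 counts in all, a share close to the 1.3% of all genes that did. A smaller cluster of the same class (cluster 1, 258 and 232 nuclei, led by genes such as ALK and NTNG1) differed from cluster 4 in 6 of 80 genes (background 9.9%) and from cluster 7 in 6 of 81 (background 9.47%). Cluster 1 had less SLC7A8 (39.3 and 41.7 CPM against 151 and 131 in cluster 4). It had more SLC24A3 (581 and 685 against 268 and 337).

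Among interneuron-like clusters, the one with NOS1, SST and NPY (cluster 11, 22 and 30 nuclei) and the largest one (cluster 12, 108 and 156 nuclei, with KIT and PTHLH among its markers) differed in 13 of 69 genes (background 15.1%). SLC4A5, a sodium-bicarbonate cotransporter, stood at 20.5 and 51.1 CPM in cluster 11 and 0.866 and 1.32 in cluster 12. SLC7A11 had the opposite order, at 2.28 and 1.76 CPM and 44.2 and 27.5, as had SLC8A1 (312 and 404 and 1085 and 1302). The small cluster 14 (30 and 25 nuclei, median 659 UMIs), which is led by SLC5A7 and ACHE, differed from clusters 11 and 12 in 25 of 42 and 46 of 68 genes, where 54.5% and 62.1% of all genes did.

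Of the unnamed clusters, cluster 13 (41 and 27 nuclei) has FLT1, ERG, COLEC12 and CEMIP among its leading genes, which are known from vessel walls and connective tissue. Of the 10 list members with at least 20 counts there, 5 stood above every cluster of the named classes in both libraries, where 23.9% of all 1161 genes with such counts did. In so shallow a cluster a gene reaches 20 counts mostly by being high there, so this count describes only the genes that reached them. SLC6A13 (GAT-2), a GABA and taurine carrier, had 45 and 7 counts there, which is 665 (485 to 890.1) and 263 (106 to 541) CPM with exact 95% Poisson intervals, against at most 1.06 CPM in the named classes. SLC39A8 had 23 and 13 counts, or 340.0 (216 to 510.2) and 488 (259.8 to 835) CPM, against at most 4.49.

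The other 3 were the zinc carrier SLC39A10 at 1020.0 (794 to 1291) and 1051 (698 to 1519) CPM, the cationic amino acid carrier SLC7A1 at 222 (124 to 366) and 450.5 (233 to 787) and SLC16A12, a creatine carrier, at 237 (135 to 384) and 450.5 (233 to 787). The intervals cover counting error only, and the cluster holds too few nuclei for the class test. By the same rule 0 of 49 list members stood above the named classes in unnamed cluster 10 (2.68% of all genes).

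The comparison of nuclei with whole cells is the one the series was made for. Levels of whole cells are sums over all barcodes. No whole cells barcode passed the filter used for nuclei, and 68 of 2162 and 269 of 32500 barcodes had at least 200 genes. Over 15781 genes tested, 93 list members had enough counts, of which 41 were called as higher in nuclei and 10 in whole cells (edgeR, adjusted p under 0.05), against 29.8% and 22.4% of all genes. The median log2 difference, nuclei minus whole cells, was 2.00 for the list members tested and 0.61 over all genes tested. Whole cells gave few counts: 39 of the 93 had under 10 whole cells UMIs in all, and 14 had none. The directions rest on composition factors, without which log2 differences rose by a median of 3.06 over all genes and 83 genes were higher in nuclei and 0 in whole cells (79.4% and 3.16% of all genes). The counting program also differed, Cell Ranger 6.0.1 for whole cells and 7.0.0 for nuclei, and cannot be told apart from the kind of library.

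The genes called higher in nuclei included the calcium exchangers SLC24A2 and SLC8A1. SLC8A2 was not called (log2 0.0086 ± 0.47, edgeR adjusted p = 0.989). Levels in this comparison are CPM of the non-mitochondrial UMIs of a library. SLC24A2 gave 16 and 49 whole cells UMIs against 123661 and 102149 nuclei UMIs, or 127 and 19.5 against 1768 and 2015 CPM (log2 5.31 ± 0.67, edgeR adjusted p = 9.77e-08). SLC8A1 stood at 55.6 and 79.6 CPM in the whole cells libraries and at 946 and 926 in nuclei (log2 3.67 ± 0.56, edgeR adjusted p = 1.98e-06). For both, all nuclei libraries stood above all whole cells libraries. The sizes moved with the whole cells library left out: SLC24A2 had a log2 difference of 6.50 without replicate 1 and 4.28 without replicate 2, and SLC8A1 had 4.47 without replicate 2.

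The 5 genes with the largest fitted difference had no UMI in either whole cells library, so only a lower bound on the fold can be given, with 3 counts over both libraries in place of 0. SLC16A4, a member of the monocarboxylate family, was at least 35.8-fold higher in nuclei, at 30.7 and 50.7 CPM. The bounds were 14.2-fold for SLC12A8, 9.93-fold for SLC6A20, 7.52-fold for SLC6A4 and 7.07-fold for SLC38A8. Without whole cells replicate 2, which gave 3350 UMIs of the list against 189 in replicate 1, the bound for SLC16A4 was 1.71-fold and no bound could be given for the other 4, whose nuclei levels lay under the 23.8 CPM that 3 counts make in replicate 1. With that single whole cells library at 0, the spread comes from the nuclei libraries alone, and SLC12A8, SLC6A20, SLC6A4 and SLC38A8 were not called (adjusted p = 0.0658 to 0.258). The adjusted p of 0.00183 for SLC16A4 in that fit says nothing about stability.

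In the other direction, SLC6A13 stood at 23.8 and 7.96 CPM in whole cells, from 3 and 20 UMIs, and 1.07 and 0.947 in nuclei (log2 -3.44 ± 0.71, edgeR adjusted p = 0.000149). SLC39A7, which releases zinc from the secretory pathway, had 1 and 25 UMIs, or 7.94 and 9.95 CPM against 1.16 and 1.68 (log2 -2.90 ± 0.66). SLC16A11 had 15.9 and 8.76 against 1.63 and 1.58 (log2 -2.71 ± 0.66). For these 3 genes the groups did not overlap. Without whole cells replicate 2 the 3 genes have 3, 1 and 2 whole cells UMIs left, and the spread then comes from the nuclei libraries alone, so which of them were called (adjusted p = 0.00567, 0.467 and 0.0870) does not set them apart.

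SLC4A3 and SLC4A2 were also called higher in whole cells, but rested on replicate 2. SLC4A3 had 1 UMI in whole cells replicate 1 and 313 in replicate 2, 7.94 and 125 CPM, against 16.96 and 11.7 in nuclei, so the groups overlapped. SLC4A2 had 0 and 22 whole cells UMIs. Without whole cells replicate 2 30 genes of the list were called for nuclei and 3 for whole cells, and the 1 UMI of SLC4A3 and 0 of SLC4A2 left in whole cells were too few to give a direction. With the animal pool as a replicate block, the counts were 35 and 5, and SLC4A3 was not called (log2 -2.07, adjusted p = 0.0809). On library size alone, SLC39A7, SLC4A2, SLC4A3 and SLC16A11 had log2 differences of 0.20 to 0.36, on the nuclei side, and none of the 5 named genes passed.

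**Figure D4:**
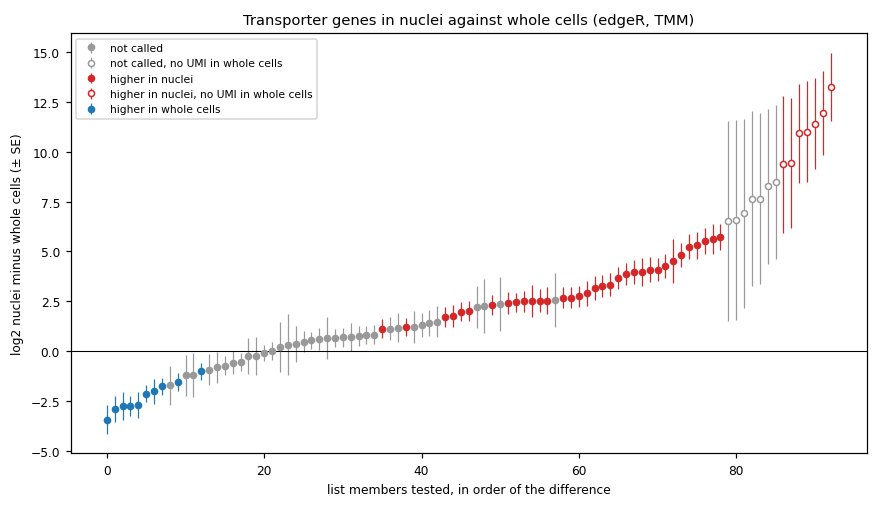
Log2 difference, nuclei minus whole cells, with its SE for the 93 list members tested, in rank order, in red or blue where called and open where whole cells had no UMI. The 10 blue points lie between -3.44 and -1.01, and the open points to the right have wide errors, with whole cells at 0.

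The nuclei libraries of the different animal pools were compared within each class as a description, since each pool had a single nuclei library. Of 386 pairs of a gene and a class with at least 20 counts, 36 were at least 2-fold apart, 30 of them higher in replicate 2, as were 75.8% of such pairs over all genes. Medium spiny neuron-like nuclei had 13 of 86 genes (background 16.9%), oligodendrocyte-like 7 of 70 (10.8%), precursor-like 7 of 62 (8.72%), microglia-like 4 of 41 (7.26%), astrocyte-like 3 of 58 (7.34%) and interneuron-like 2 of 69 (10.6%). The shares lay below the background in 4 classes and above it in precursor-like and microglia-like nuclei. Replicate 1 was the deeper library, and the part of depth in these differences was not tested.

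SLC24A5 differed between the libraries in nearly every class. The gene, whose product is an exchanger best known from the pigment organelles of skin and eye, stood at 31.1 and 110.3 CPM in medium spiny neuron-like nuclei of replicates 1 and 2, 48.02 and 152 in precursor-like and 51.8 and 139 in oligodendrocyte-like nuclei. It had 36.6 and 96.5 CPM in microglia-like, 86.4 and 181 in astrocyte-like and 51.2 and 98.6 in interneuron-like nuclei. Replicate 2 was higher in all 6 classes, by 1.92-fold to 3.55-fold. It was past 2-fold in 5 of them, and no other gene of the list was past 2-fold in more than 3. In the medium spiny neuron-like sums the exact 95% Poisson intervals were 29.5 to 32.8 in replicate 1 and 106 to 114 in replicate 2. In whole cells SLC24A5 had 0 and 4 UMIs, too few to compare the pools.

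SLC6A4 was past 2-fold in 3 classes, also higher in replicate 2, with 6.06 and 15.3 CPM in oligodendrocyte-like nuclei. Together with SLC24A5, SLC16A4 and SLC39A6 it was among 4 of 33 genes with at least 20 counts in all 6 classes that were higher in replicate 2 in each of them, while none was higher in replicate 1 in each. Of all 7585 genes with such counts, 11.4% were higher in replicate 2 in all 6 classes and 8.68% in replicate 1, so the share for replicate 2 was close to the background. In interneuron-like nuclei 2 genes were past 2-fold. SLC9A9 stood at 134 and 607 CPM from 370 and 2654 UMIs, and SLC24A4 at 11.2 and 53.7 from 31 and 235. Within interneuron-like cluster 12 alone, SLC9A9 was at 149 and 694 CPM and SLC24A4 at 12.1 and 60.5.

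In medium spiny neuron-like nuclei, 11 of the 13 genes past 2-fold were higher in replicate 2. SLC38A11, SLC9A3R2, SLC6A7, SLC16A12 and SLC4A5 were 3.09-fold to 4.35-fold higher there, all at under 8 CPM. SLC16A3, SLC24A1, SLC39A1, SLC16A9 and SLC7A6OS were 2.03-fold to 2.97-fold higher, and SLC39A8 and SLC7A2 were 2.59-fold and 2.29-fold higher in replicate 1. In oligodendrocyte-like nuclei SLC7A14 was 2.21-fold higher in replicate 2, from 461 and 771 UMIs. Smaller counts lay behind SLC9A2, SLC12A5 and SLC7A6 (higher in replicate 2) and SLC39A5 (higher in replicate 1) in that class. In precursor-like nuclei SLC39A14, SLC39A6, SLC6A4, SLC24A1, SLC7A6 and SLC7A6OS were 2.05-fold to 3.33-fold higher in replicate 2. In microglia-like nuclei SLC7A11 and SLC6A4 were higher in replicate 2 and SLC12A8 in replicate 1, and in astrocyte-like nuclei SLC4A3 and SLC24A4 were 2.705-fold and 2.66-fold higher in replicate 1.

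**Figure D5:**
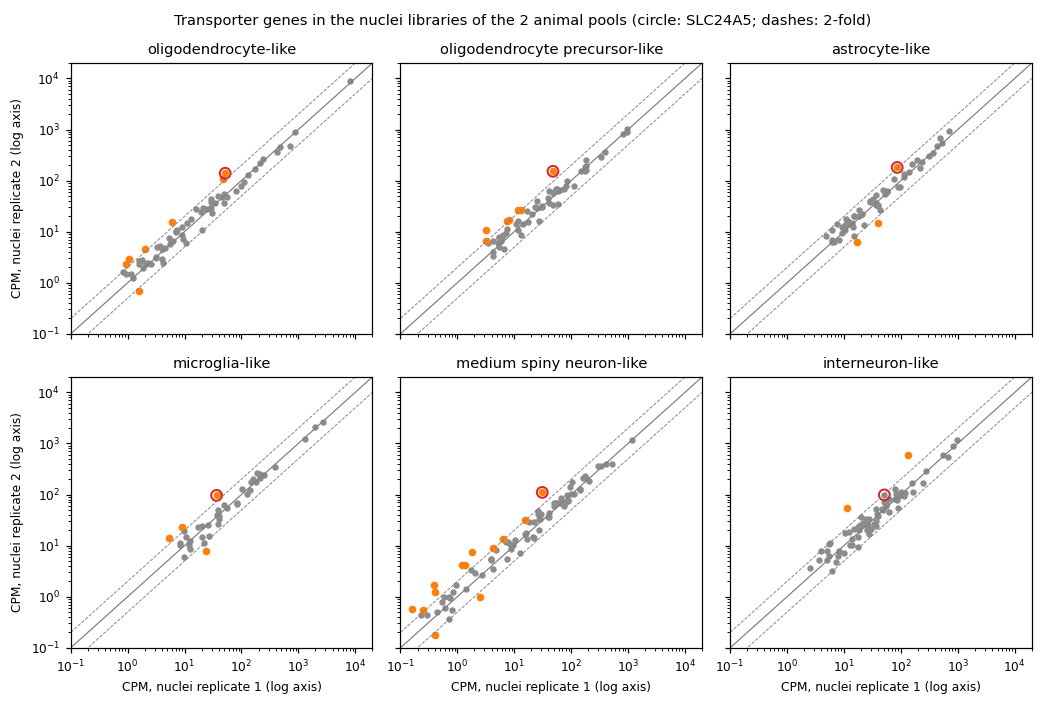
CPM of list members with at least 20 counts in nuclei replicate 1 (x axis) and replicate 2 (y axis) in each class, on log axes. Orange points are at least 2-fold apart, dashed lines mark 2-fold, and the circled SLC24A5 lies above the diagonal in every class.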

How the data were processed

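Droplet RNA sequencing of sheep striatum gave 4 libraries. The authors deposited raw UMI counts per gene and barcode, made per the file headers with Cell Ranger 6.0.1 (whole cells) and 7.0.0 (nuclei). The submitters' processing notes also name Cell Ranger 2.1.1 and STAR 2.7.2a. Build, annotation and intron counting are not given in the sources used here. Animal pools follow the sample titles; the labels' protocols name animals 1+2 and 2+3 for the cell suspensions.

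Nuclei with fewer than 200 genes or over 5% mitochondrial UMIs were dropped. Scrublet called 390 of 8700 nuclei (4.48%) in replicate 1 and 0 of 8388 in replicate 2, so it did not work there, and the highest 8% of scores were removed in each. Nuclei were clustered with scanpy 1.11.5 (2000 variable genes without the 106, 30 components, 15 neighbours, Leiden at resolution 0.5). A cluster took a class name when at least 3 markers of that class stood 2-fold above the median of the other clusters, with a lead of 2 markers. A marker needed at least 20 CPM in the cluster. The name was dropped where another class had more markers among the cluster's 10 leading genes, general neuron markers aside for neuronal classes. It was also dropped where median UMIs lay over 3-fold below the library median and no own marker was among those 10 genes. This naming rule was set after the clusters were seen and was the third form tried; earlier forms left the medium spiny neuron-like clusters, among others, unnamed.

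Counts were summed per class and library, since nuclei of a library are not replicates, and tested with edgeR 4.0.16 in R 4.3.3 (TMM, filterByExpr, Benjamini-Hochberg over all genes, class plus library as a block). Nuclei were tested against whole cells on sums over all barcodes, since 0 whole cells barcodes passed the filter on nuclei. With 2 pools, p-values measure only the spread between these libraries. Same-pool libraries pair by animal through the titles; their deviations from group means had a correlation of -0.07 over 1791 genes. DESeq2 1.42.0 and the settings under the closing section were alternatives. The code was tested on simulated data. Genes named are, per class, up to 5 called in each direction, up to 5 in each direction between nuclei and whole cells, all past 2-fold between the nuclei libraries, and a panel with known brain roles; genes named from cluster comparisons were chosen after their values were seen. The members, lists and panel were chosen with earlier results of these data known. SLC6A8, in the panel, is not under that symbol in the gene list. Sequences and coordinates were not used here, and some genes are counted in the totals but not reported here by name.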

Additional observations from a re-analysis of the deposited data

How the results depend on the processing

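The counts by class kept within 1.5 times of their value under library size alone, no filter on low counts, DESeq2, at least 500 genes per nucleus and the members allowed in the clustering. The settings on doublets, genes per nucleus and resolution also changed which nuclei a class held. The exception among the counts was the number lower in interneuron-like nuclei, 5, which became 1 with doublets kept, 2 with Scrublet's own calls and 3 at resolution 1.0. No astrocyte-like class could be named with doublets kept or with Scrublet's own calls, so the contrast was then with 4 other classes. The interneuron-like class, 160 and 211 nuclei, held 634 and 470 with doublets kept and 269 and 333 at 500 genes, and the medium spiny neuron-like class, 1421 and 1376 nuclei, held 116 and 123 at resolution 1.0. Changes under these settings cannot be put down to the setting apart from the classes compared. With 1 nuclei library no class count could be tested. Without the replicate block 78 genes differed among classes, against 79, and SLC16A5 in oligodendrocyte-like nuclei was not called (adjusted p = 0.0829), nor was it at resolution 1.0. Lower calls in interneuron-like nuclei were also lost for SLC7A10 and SLC7A2 with doublets kept (adjusted p = 0.361 and 0.0501) and with Scrublet's own calls (0.075 and 0.196), and for SLC16A11 under both (0.316 and 0.0542) and at resolution 1.0 (0.0953). The lower call of SLC7A11 in precursor-like nuclei was lost with Scrublet's own calls (adjusted p = 0.541). With the animal pool as a replicate block, 5 genes were higher in whole cells instead of 10. With library size alone 83 were higher in nuclei instead of 41 and 0 in whole cells, also 0 at an unadjusted p under 0.05, where DESeq2 with its own size factors gave 39 and 7. Leaving out each library in turn gave 30 to 53 higher in nuclei and 3 to 11 higher in whole cells. Between the nuclei libraries, a 1.5-fold threshold gave 97 pairs instead of 36. With doublets kept, SLC7A11 in precursor-like nuclei stood at log2 0.024 against the other classes, which then lacked the astrocyte-like class where it is high. The direction of SLC39A7 (0.20), SLC4A2 (0.36), SLC4A3 (0.32) and SLC16A11 (0.33) turned with library size alone. Over the fits that left out a library SLC4A2 had a range of -3.20 to 8.63 and SLC4A3 of -3.20 to 1.26, the upper values without whole cells replicate 2, where 0 and 1 whole cells UMIs are left. SLC16A11 had 8.60 with barcodes of at least 200 genes, where whole cells have 0 UMIs. These values over 0 or 1 UMI give no direction. SLC4A2 was not called by DESeq2 (adjusted p = 0.106), nor SLC39A7 with barcodes of at least 200 genes (adjusted p = 0.148). For the other changes the cause was not tested. Depth limits whole cells, where 39 of 93 genes tested had under 10 UMIs.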

Other observations

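The 22 genes that could not be tested among the classes had a median of 25 counts over the 6 classes, and 20 of them had under 100. SLC39A3 (245 counts) and SLC7A9 (233 counts) had the most, and SLC6A12, a betaine and GABA carrier, had none in any class. SLC4A10 reached 863.8 CPM in unnamed cluster 5, whose leading genes include SLC17A6 and TBR1, from 207 counts in replicate 1. That cluster held 170 nuclei of replicate 1 and 1 nucleus of replicate 2, so the value comes from a single library, and the highest level in a cluster of the named classes was 682 CPM.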
